A study of Mus musculus with 6 samples.

Results

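The genes described here are the coding genes without introns in the mouse gene annotation that served to count reads in this study. A gene name was taken when it had at least 1 coding row, carried 1 gene ID, lay on chromosomes 1 to 19, X, Y or M of mm10, and had exactly 1 exon row in every transcript. Of 38334 gene names, 22923 were coding. After 75 names that lay wholly or partly off the chromosomes and 117 names with several gene IDs were set aside, 22731 coding names remained. Of these, 3104 (13.7%) had no intron and 19627 had introns. The experiment compared mTAL cells, an immortalised epithelial line from the thick ascending limb of the mouse nephron, expressing GFP-tagged wild type uromodulin or its C150S isoform. There were 3 libraries of each, all from passage 3 cells transduced with a lentivirus carrying human UMOD under the spleen focus-forming virus promoter. The cells no longer expressed TAL markers such as uromodulin itself. Expression values, library depth and differences between the groups were not analysed here. The annotation is the same for all libraries and has no replicates, so the values below are counts over the annotation, or over those genes with a sequence where one was needed, and carry no replicate error or test.

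Most mouse genes are interrupted by introns, which are removed by splicing before the RNA is translated. A gene without introns skips this step. Some such genes arose by retrotransposition, in which a spliced RNA is copied back into the genome. Others belong to old families that have been duplicated side by side, such as the receptors of smell, taste and pheromones, the histones, the keratin-associated proteins of hair and the type I interferons. No read over such a gene can carry a splice junction, so its RNA cannot be told apart from DNA carried over into the library by the shape of the alignment. The RNA of this study was treated with DNase before the libraries were made.

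Replication-dependent histones are the best known coding genes without introns. Their RNA ends in a short stem-loop in place of a poly(A) tail, and a library made by poly(A) selection captures such RNA poorly. A stem-loop was looked for within 100 bases after the stop codon, as a stem of 6 bases that starts with GG, a loop of 4 bases that starts with TT, and the reverse complement of the stem. The search was made on the gene's strand of the GENCODE M21 transcripts. Of the 62 genes with the prefix Hist, 47 had at least 16 bases after the stop codon in these transcripts, and 42 of them (89.4%) held a stem-loop. The same search found 2 among 2084 other genes without introns, both histone genes (H2afx and H2bfm), and 7 among 18865 coding genes with introns (0.0371%). The 42 stem-loops took 6 sequences. An example of each is shown because these letters are what sets the histones apart from the other families. Capitals mark the stem, the lower case bases between them the loop, and 5 bases are given on either side.
Hist1h1c (24 genes): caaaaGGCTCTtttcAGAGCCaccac
Hist1h4c (7 genes): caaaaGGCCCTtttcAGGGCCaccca
Hist1h1t (6 genes): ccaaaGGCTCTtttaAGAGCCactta
Hist1h4i (2 genes): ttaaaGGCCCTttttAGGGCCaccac
Hist1h4b (2 genes): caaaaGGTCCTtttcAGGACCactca
Hist2h2ac (1 gene): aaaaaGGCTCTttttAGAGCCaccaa
The stem-loop of Hist1h1c lies at chr13:23739512-23739527 on the plus strand, that of Hist1h4c at chr13:23698089-23698104 on the minus strand and that of Hist2h2ac at chr3:96220418-96220433 on the minus strand (GRCm38, the assembly of mm10). Those of Hist1h1t (chr13:23696525-23696540) and Hist1h4b (chr13:23757366-23757381) are on the plus strand and that of Hist1h4i (chr13:22040966-22040981) is on the minus strand. The loop began with TTT in every sequence shown, and only its last base differed. The stem began a median of 31.5 bases after the stop codon (range 21 to 58).

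Keratin-associated proteins form the matrix between the keratin filaments of hair. They stood out by their promoters. The letters TATAAA, the core of the TATA box, were searched on the gene's strand in RefSeq promoters of GRCm38.p6, which hold 250 bases before and 50 bases after the start site. A RefSeq start within 500 bases of the start in the annotation was found for 1772 genes without introns and 13919 with introns. The letters lay 45 to 16 bases before the start in 28 of 42 Krtap promoters (66.7%) and in 15 of 57 Hist promoters (26.3%). They lay there in 4.68% of all promoters of genes without introns, 2.83% of those of genes with introns and 2.14% of all 32851 RefSeq promoters. In 792 Olfr promoters the share was 1.39%, and none of 160 Vmn1r promoters held them in that window. Over the whole 250 bases the shares were 83.3% for Krtap, 42.1% for Hist, 34.4% for Vmn1r, 24% for Olfr, 22.3% for all genes without introns and 6.48% for genes with introns. The median GC content of the promoters was 39.7% without introns and 58.3% with introns. It was 34.7% for Olfr, and 52% over the 430 promoters outside the Hist, Olfr, Vmn, Gm and Rik names. Of those 430, 8.6% held TATAAA 45 to 16 bases before the start. A match is a description of the letters and not a site of binding. Promoter stretches of 3 Krtap and 3 Hist genes are shown with TATAAA in capitals.
Krtap1-4: atagggaataTATAAAagaccaggtg
Krtap11-1: agcaaggataTATAAAaagcccaggg
Krtap17-1: gtgagggggaTATAAAagctgctgtc
Hist1h1b: caccggcttaTATAAAccaggagcct
Hist1h1e: ctccgccctaTATAAAcgggcgggcg
Hist1h4d: gcattggtatTATAAAagccaggaag
They lie at chr11:99583693-99583718 (Krtap1-4), chr16:89571196-89571221 (Krtap11-1), chr11:99994010-99994035 (Krtap17-1), chr13:21780638-21780663 (Hist1h1b) and chr13:23622570-23622595 (Hist1h1e) on the minus strand, and at chr13:23581526-23581551 (Hist1h4d) on the plus strand. In the 6 stretches the letters began 31, 28, 31, 28, 27 and 32 bases before the start, in the order shown.

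The 3104 genes carried 357 symbol prefixes. A prefix is the letters before the first digit, hyphen or point of the symbol, except that names ending in Rik and clone names were each taken as 1 class. Most prefixes (263) had 1 such gene. The 18 prefixes with 10 or more held 2611 of the genes (84.1%). Olfr, the odorant receptors, led with 961. Gm, names given to predicted genes, followed with 949, Rik, names taken from cDNA clones, with 196, and Vmn, all of them Vmn1r pheromone receptors, with 185. Next came Hist with 62, Krtap with 47, the bitter taste receptors Tas2r with 35 and the immunoglobulin heavy chain segments Ighv with 34. The protocadherins Pcdhb had 22, the light chain segments Igkv 19 and the ribosomal protein prefix Rpl 18. Of the 18 Rpl names, 13 were pseudogenes in GENCODE M21 and 4 were still protein coding without introns. The trace amine receptors Taar had 14, clone names 13, the mitochondrial genes 13, the T cell receptor segments Trav 12, the interferons Ifna 11, and the claudins Cldn and the receptors Gpr 10 each. Names of the Gm, Rik, clone or ID kind made up 37.5% of genes without introns and 10.3% of genes with introns.

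**Figure D1:**
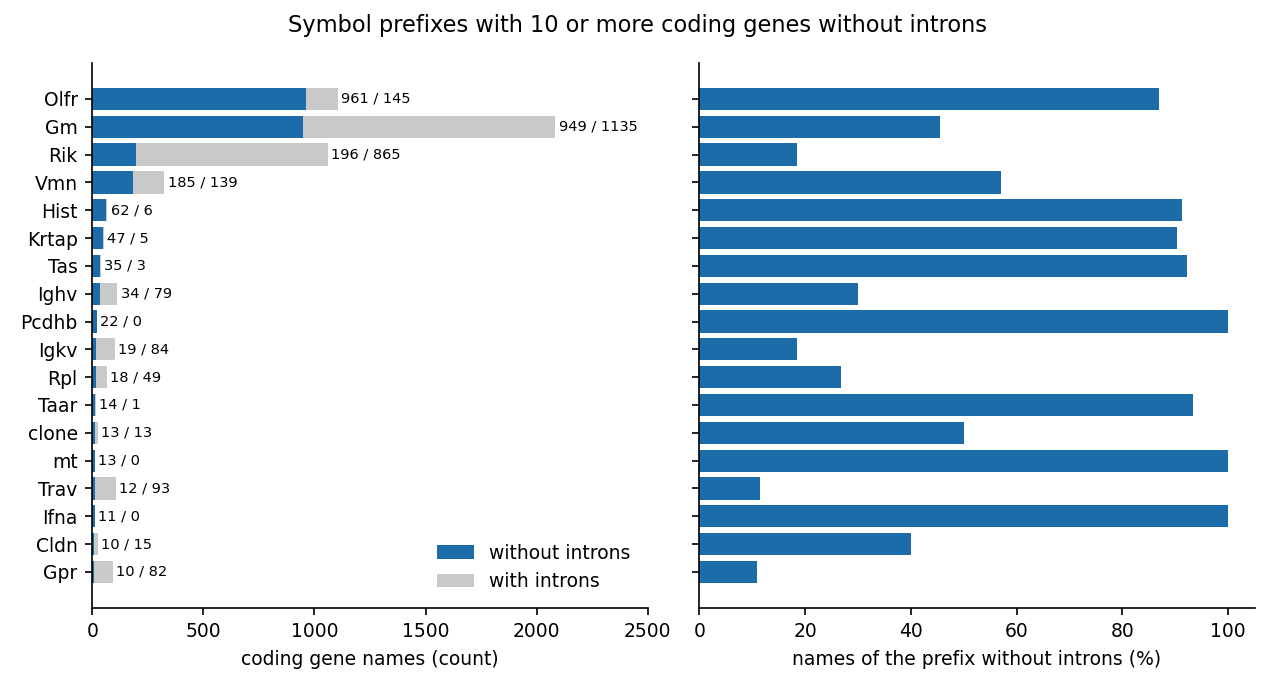
Coding gene names of each prefix with 10 or more genes without introns. The left panel gives counts, with genes without introns in blue and with introns in grey, and the right panel the share without introns in percent. Pcdhb, mt and Ifna had no gene with introns, and Rik, Igkv, Gpr and Trav had under 20% without.

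Of the 18 prefixes with 10 or more, 15 also had genes with introns. All 22 Pcdhb, 13 mitochondrial and 11 Ifna genes lacked introns. So did 93.3% of Taar, 92.1% of Tas, 91.2% of Hist, 90.4% of Krtap and 86.9% of Olfr names. The share was 57.1% for Vmn, whose 139 genes with introns include the Vmn2r receptors with a long extracellular part, 45.5% for Gm and 40% for Cldn. In Gpr it was 10.9%. Many genes with introns still had the coding sequence of their longest coding transcript in 1 exon. There were 1131 of these (5.76% of genes with introns). In 76 genes with introns that transcript had 1 exon in all, so their introns lay in other transcripts. The 1131 included 129 of the 145 Olfr genes with introns and 36 of 82 Gpr genes. All 20 Lce genes of the cornified envelope of skin and 13 of 14 Sprr genes of the same structure were among them. The rule drops these genes although a read within that coding sequence has no splice junction either.

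Odorant receptors are membrane proteins with 7 helices, and each olfactory neuron expresses very few of them. Of the 961 Olfr genes, 937 (97.5%) had at least 900 and under 1000 coding bases, stop codon included. Their median was 942, the same as in the 145 Olfr genes with introns. The shortest was Olfr443-ps1, with 234 coding bases and 681 untranslated 3′ bases, and the longest Olfr225 with 1260. The protein motif MAYDRY, at the inner end of the third helix of these receptors, stood in 411 of 955 Olfr proteins (43%) in 82 of 138 proteins of Olfr genes with introns (59.4%) and in none of 1630 other proteins of genes without introns. Chromosome 2 held 249 Olfr genes, chromosome 7 212, chromosome 9 110 and chromosome 10 62. Vmn1r genes had a median of 924 coding bases (range 870 for Vmn1r237 to 1155 for Vmn1r213), and 92 of 185 lay on chromosome 7. Tas2r genes ranged from 882 bases in Tas2r143 to 1044 in Tas2r102, and 33 of 35 were on chromosome 6. The 14 Taar genes, which detect volatile amines, ran from 999 bases in Taar1 to 1077 in Taar7f and formed 1 cluster on chromosome 10.

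The 62 Hist genes encode 6 H1, 19 H2A, 12 H2B, 12 H3 and 13 H4 histones. Core histones were almost uniform in length. All 13 H4 genes had 312 coding bases, 11 of 12 H3 genes had 411, 11 of 12 H2B genes 381 and 15 of 19 H2A genes 393. H1 linker histones ranged from 630 to 672, with Hist1h1b the longest. Chromosome 13 held 50 Hist genes and chromosome 3 another 9. Stem-loops were found in 4 H1, 11 H2A, 8 H2B, 8 H3 and 11 H4 genes. Most of the 20 Hist genes without a stem-loop had few or no bases after the stop codon in the transcripts searched. The exceptions with 16 or more were Hist1h1a, Hist1h3g, Hist1h4a, Hist2h2be and Hist2h3b. Hist2h2be had the full 200 bases and no stem-loop in these letters. Other histone genes carried other symbols, among them H1fx, H2afj, H2bfm and Hils1. H1f0, a linker histone of cells that have stopped dividing, had 585 coding and 1192 untranslated 3′ bases. H2afx, the histone phosphorylated at DNA breaks, had 432 and 878. H1fnt, a linker histone of sperm, had 1197 coding bases.

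Krtap genes had a median of 498 coding bases and ranged from 165 in Krtap6-3 to 1509 in Krtap16-1. Their proteins differ in composition. In 37 with sequence, cysteine made up a median of 20.2% of residues and ranged from 0 in Krtap19-9b to 41.5% in Krtap5-5, against a median of 2.98% over all genes without introns. The Krtap19 proteins were at the low end for cysteine but rich in glycine, with 46.1% in Krtap19-2 and 40.5% in Krtap19-4. Lysine was at a median of 0 in Krtap and 10.7% in Hist proteins. Cornified envelope genes without introns numbered 3. They were Lce1j, Sprr4 (231 coding bases) and Sprr2a3 (252).

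Type I interferons are secreted when a cell senses a virus. The 15 genes ran from 549 coding bases in Ifnb1 to 579 in Ifne, and all lay in 1 cluster of chromosome 4 from 88522025 to 88880201, which begins with Ifnb1 and ends with Ifne. The 22 Pcdhb genes, adhesion proteins that differ from neuron to neuron, were long, with 2319 coding bases in Pcdhb6 and 2490 in Pcdhb7. All 22 were on the plus strand of chromosome 18 within 256.4 kb, with no gene with introns starting between them.

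Regulators of development were present in small numbers. They, and the groups that follow, were taken by symbol prefix, so genes of like function under other symbols are not in the counts. There were 12 genes with the prefix Fox, 5 with Sox and 5 with Pou, from 867 coding bases in Foxe3 to 1662 in Foxc1. None of the 22 lacked untranslated bases, and their median untranslated 3′ length was 822. FOXL1, whose symbol is in capitals and which the prefix therefore missed, had 1011 coding, 22 untranslated 5′ and 1672 untranslated 3′ bases. Sox2, a factor of stem cells, had 960 coding, 411 untranslated 5′ and 1086 untranslated 3′ bases. Sox4 had 1323, 692 and 2780. Among the basic helix-loop-helix factors listed, Atoh7, needed for retinal ganglion cells, was the shortest with 450 coding bases and Bhlhe22 the longest with 1068. Among the leucine zipper factors listed, Cebpb had 891, Junb 1035 and Mafa 1080. The zinc finger prefixes searched gave Klf14, Zfp830 and Zbtbd6, with 978, 1092 and 1650 coding bases. They were taken by the letters of their symbols, and zinc fingers were not looked for in their proteins.

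The prefixes searched for amine, peptide, lipid and orphan receptors gave 43 genes. Aplnr, Gpbar1, Niacr1, Npbwr1, Rxfp3 and Rxfp4 are receptors outside these prefixes. The shortest coding sequence was that of Mrgprx3-ps (864) and the longest that of Fzd8 (2058), a Wnt receptor. Htr1a, a serotonin receptor, had 1266 coding and 2614 untranslated 3′ bases. Mc4r, which acts in appetite, had 999. Among 12 genes with claudin and connexin prefixes, which form tight and gap junctions, Cldn4 was the shortest with 633 and Gja10 the longest with 1518. Claudins set the ion selectivity of the nephron. Cldn3 and Cldn4 lay in 1 cluster on chromosome 5, Cldn8 and Cldn17 on chromosome 16, and Cldn22 and Cldn24 on chromosome 8. Potassium channel genes by prefix were Kcne1l, Kcnj11, Kcnf1 and Kcna3, from 432 bases in Kcne1l to 1587 in Kcna3. Small heat shock and DnaJ chaperones ran from 465 in Hspb3 to 939 in Dnajb7.

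The 13 mitochondrial genes lack introns like all genes of that genome. They ranged from 204 coding bases in mt-Atp8 to 1824 in mt-Nd5, all without untranslated bases. In 3 of them (mt-Co3, mt-Cytb and mt-Nd4) the coding length was not a multiple of 3. That was so for 32 of all 3104 genes (1.03%) and for 1.7% of genes with introns. The Ighv, Igkv and Trav entries are gene segments that are joined in lymphocytes. They had medians of 294, 288 and 273 coding bases and no untranslated base.

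Genes without introns were shorter. The median coding length was 918 bases (quartiles 513 and 951) against 1254 (quartiles 733.5 and 2037) with introns. The distribution had a narrow peak, with 39% of genes at 900 or more and under 1000 bases against 5.62% of genes with introns. Of the 1210 genes in that range, 1119 were odorant, pheromone, trace amine or taste receptors. Without Olfr the median was 684. The longest coding sequences were those of Pkdrej (6381), a sperm protein of the polycystin group, Gm8251 (5985), Rimbp3 (4821), the imprinted gene Magel2 (3855) and Kif4-ps (3669). The shortest were Gm17581 (57), Gm21836 (63), and Gm16499, Gm17567 and Gm6020 (66 each).

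**Figure D2:**
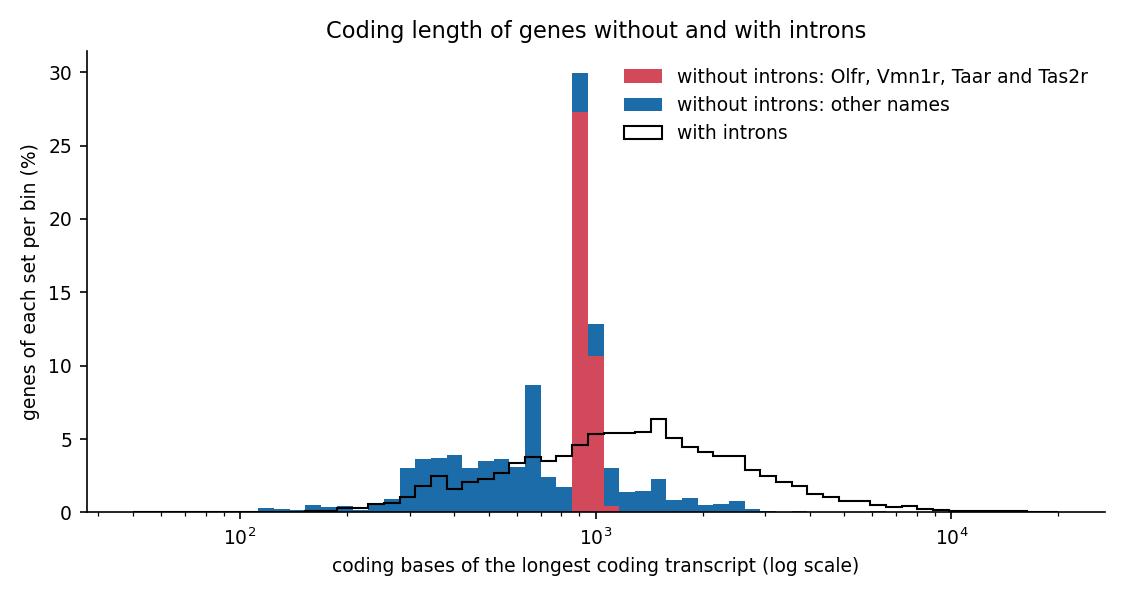
Coding length in bases (log axis) against the share of genes of each set per bin in percent. Chemosensory receptors without introns are in red, other genes without introns in blue, stacked, and genes with introns are the black line. The red peak between 900 and 1000 bases has no counterpart in the black line, and a smaller blue peak holds the 171 Y genes of 684 bases.

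Untranslated bases were missing more often. No untranslated base was annotated for 52.5% of genes without introns and 5.55% of genes with introns. The share was 63.2% for Olfr, 65.4% for Vmn, 68.7% for Gm and 68.6% for Tas. It was 8.51% for Krtap, 9.09% for Pcdhb, 11.3% for Hist and 14.3% for Rik. Where both sides had untranslated bases, the medians were 79 bases on the 5′ side and 252.5 on the 3′ side in 1346 genes without introns, against 157 and 764 in 17664 genes with introns. The longest 3′ sides were those of Purb (7313), a DNA-binding repressor, Pigm (6129), which acts in GPI anchor synthesis, Rgs9bp (5509), Exoc8 (5176), a subunit of the exocyst, and Ndnl2 (5027). Reads on ends that are not annotated fall outside the exon and are not counted for the gene.

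**Figure D3:**
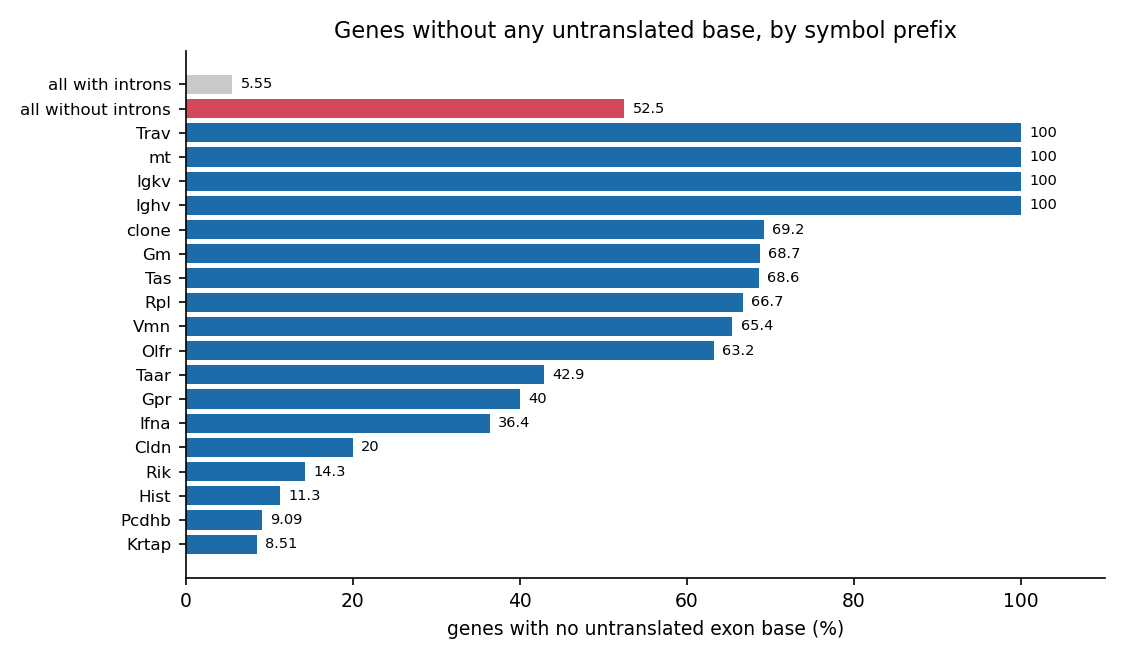
Share of genes with no untranslated exon base, in percent, for each prefix with 10 or more genes without introns (blue), for all genes without introns (red, 52.5%) and for all genes with introns (grey, 5.55%). The segments and mitochondrial genes are at 100%, and Krtap, Pcdhb and Hist have the lowest blue bars.

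Chromosome 7 held most genes without introns (436), followed by chromosome 2 (320) and Y (301). The share of coding names without introns was 21.5% on chromosome 7, 19.8% on chromosome 13, 17.6% on chromosome 2 and 5.59% on chromosome 15. On Y it was 80.3%.

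**Figure D4:**
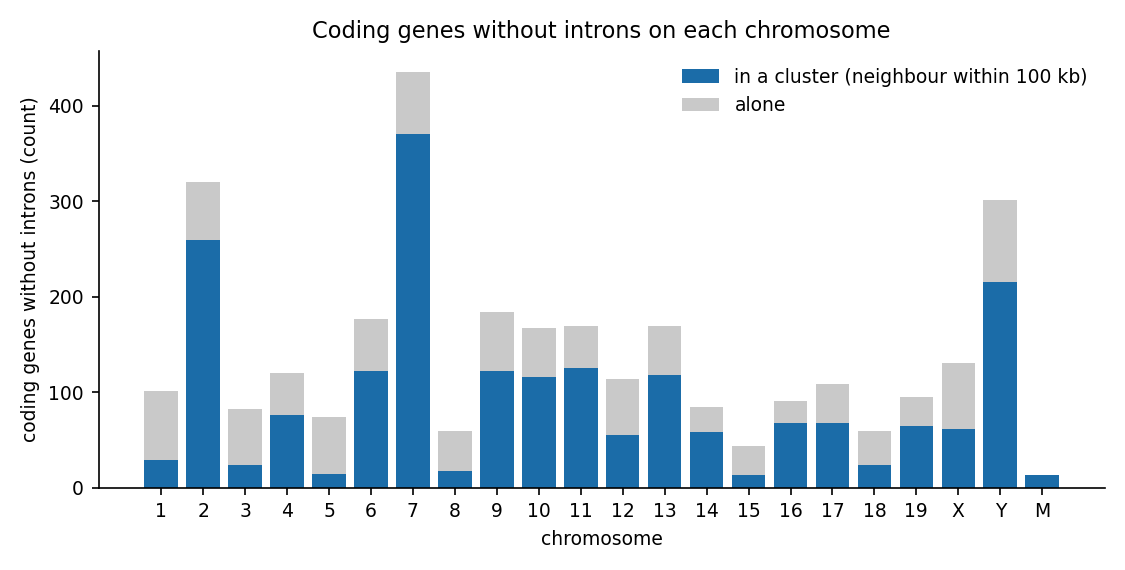
Number of coding genes without introns on each chromosome, split into genes within 100 kb of another such gene (blue) and genes alone (grey). Chromosomes 7, 2 and Y have the tallest bars, and on chromosomes 1, 3, 5 and 15, among others, most genes are alone.

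Neighbours were joined into a cluster where at most 100 kb lay between them. This gave 330 clusters with 2040 genes (65.7%). There were 176 clusters of 2 and 46 of 10 or more, which held 1197 genes. Olfr was the leading prefix in 27 of these 46. Genes of 1 prefix made up 220 of the 330 clusters (66.7%). Genes with introns are dense enough that 94.3% of them lie in clusters by the same limit, so the share of clustered genes is not particular to those without introns. The next coding gene along the chromosome tells more. It lacked introns for 56.1% of genes without introns and for 6.95% of genes with introns. The gaps nearest to the limit were 99969 bases inside and 100021 outside.

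The largest cluster ran from Olfr1099 to Olfr1270 on chromosome 2 (86958448 to 90150036) and held 120 genes, 119 of them Olfr, with 24 genes with introns starting inside. The next ran from Olfr543 to Olfr68 on chromosome 7 (102476773 to 103778343) and held 67 Olfr genes. The cluster from Olfr9 to Olfr827 on chromosome 10 (128989849 to 130211149) held 58 genes and no gene with introns started inside it. On chromosome 11 the cluster from Krtap3-3 to Krtap17-1 (99550132 to 99993994) held 55 genes, of which 31 had Gm names and 23 were Krtap, and 45 of the 55 were on the minus strand. The fifth ran from Olfr996 to Olfr1076 on chromosome 2 (85579215 to 86509402) with 52 Olfr genes. Families also met in 1 cluster. The cluster from Hist1h2ah to Vmn1r206 on chromosome 13 held 18 Vmn1r and 5 Hist genes, and the cluster from Nkapl to Hist1h2ap held 15 Hist and 7 Olfr genes. The imprinted genes Ndn, Magel2, Mkrn3 and Peg12 shared a cluster on chromosome 7.

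Many genes with Gm names resembled a named family, a comparison chosen after the data were seen. Protein sequences of 671 Gm genes were compared with those of named genes without introns, and 308 had a hit of at least 50% identity over at least 80% of their length. The best hit was Ssty1 or Ssty2, genes of the mouse Y expressed in sperm cells, for 180, of which 176 lay on Y. It was a Vmn gene for 26, all on chromosome 7, a Gmcl gene for 23, all on X, and a Krtap gene for 15, of which 12 lay on chromosome 11. It was Srsy for 15 on Y, a histone with a symbol in H for 14, of which 12 lay on X, Ifnz for 7 on chromosome 4 and Srsx for 7 on Y. Of the Gm genes, 68 had another symbol in GENCODE M21. Among the new symbols were 24 Btbd35f and 11 H2al genes. Gm12597 and Gm13280 were there named Ifna15 and Ifna16.

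On Y, 296 of the 301 genes had Gm names. The others were Sry, the gene that starts testis formation, with 1188 coding bases, Ssty1 with 699, Ssty2 with 684, Srsy with 543 and Rbm31y with 1698. Exactly 684 coding bases were found in 171 Y genes (56.8%) and in 3 genes elsewhere, which makes the smaller peak in the plot of coding length. The largest group with 1 identical protein sequence had 20 Gm genes of 227 codons, led by Gm20799, and the next had 17, led by Gm20791.

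Near-identical copies make reads ambiguous, and htseq-count drops a read that aligns to several places. Sequence was found in GENCODE M21 transcripts for 2585 genes without introns (83.3%) and 17839 with introns (90.9%). Identical coding sequences occurred in 76 groups with 215 genes. For histones the proteins agreed more than the DNA did, with 27 of 41 Hist genes in groups of identical protein and 2 in groups of identical coding sequence. Stretches as long as 1 read were compared between transcripts of coding genes that do not overlap. At least 1 such stretch was shared with another gene in 41.7% of genes without introns and 10.2% of genes with introns. At least 50% of a gene's stretches were shared in 16.3% against 3.21%, and all of them in 9.1% against 0.815%. The stretches shared made up 84.5% of all stretches on Y and 9.02% in genes without introns elsewhere, against 1.6% in genes with introns. By family the share of stretches was 39.7% for Gm, 23.4% for Vmn, 21.3% for Hist, 6.99% for Krtap, 5.72% for Olfr, 0.293% for Rik and 0.136% for Tas. None was shared in the 13 mitochondrial and 8 Gpr genes. Cldn22 and Cldn24 had 372 shared stretches each, 41.6% and 66.1% of theirs. These shares cover only the coding genes with sequence, not the rest of the genome.

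Retrotransposed genes have a parent with introns elsewhere. Proteins of the 2585 genes were compared with those of coding genes with introns, and a near copy was called at 70% identity over 80% of the length or more. There were 849 (32.8%), among them 279 Olfr and 92 Vmn genes. For 616 of the 849 the near copy also had its coding sequence in 1 exon. In 129 genes the near copy had its coding sequence in several exons and lay elsewhere, on another chromosome or at least 1000 kb away. These had a median identity of 93.1%, and 117 (90.7%) were on another chromosome. Of the 129, 62 had names other than Gm, Rik, clone or ID names. The near copy was a ribosomal protein gene for 29. Histones are among the 129 too, with H3f3a as the near copy of 9 Hist H3 genes and Hist1h2br as that of Hist1h2bb and Hist1h2bf, so a near copy by this measure does not make a gene a retrocopy. It was on X with the gene itself on an autosome for 16, and the reverse held for 5.

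Identity was 100% for 17 of the 129. Named genes among these were Psme2b-ps (copy Psme2, a proteasome activator), Rps12-ps3 (Rps12), Tpm3-rs7 (Tpm3, a tropomyosin, over 80.6% of the length) and Hist1h2bf (Hist1h2br). Gm genes among these were Gm10094 (Sap18), Gm10175 (Atp5g2), Gm10184 (Kpna2), Gm10273 (Timm23), Gm10275 and Gm9396 (Rpl12), Gm11808 (Kxd1), Gm2000 (Rpl35), Gm4737 (Ahcy), Gm5096 (Bhmt), Gm9803 (Pam16) and Gm9846 (Rps27). Psme2b-ps lies on chromosome 11 from 48945354 to 48946190 in 1 exon, and the coding sequence of Psme2 on chromosome 14 has 11 exons, both with 720 coding bases.

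Copies of X-linked genes included several known from the testis. Pgk2 on chromosome 17 was 83.7% identical to Pgk1, an enzyme of glycolysis, Pdha2 on chromosome 3 76.7% to Pdha1, a subunit of pyruvate dehydrogenase, and G6pd2 on chromosome 5 92.2% to G6pdx, glucose-6-phosphate dehydrogenase. D1Pas1 was 92.9% identical to the RNA helicase Ddx3x, Rpl10l 98.6% to Rpl10 and Mcts2 93.9% to Mcts1. Rraga, which signals amino acid supply to mTOR, was 89.7% identical to Rragb.

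Exon bases were shared with another gene name less often than in genes with introns. With strand ignored, 268 genes without introns (8.63%) and 22.3% of genes with introns shared a base. On the same strand these shares were 1.35% and 4.86%. Both are given because the strand setting of the counting is not given in the sources used here. Counting in union mode gives no count to a read on shared bases. With strand ignored, no base of its own was left for 23 genes without introns (0.741%) and 56 with introns (0.285%), the reverse order. This count is not given for the same strand alone. Of the 23, 6 had names other than Gm, Rik, clone or ID names. ACTL7B was covered by Actl7b, AUTS2 by Auts2, and Hist2h2aa1, Hist2h2aa2, Hist2h3b and Hist2h3c1 by Gm names. Within an intron of another coding gene lay 159 genes (5.12%), 42 on the same strand and 117 on the opposite strand. FOXL1, Foxc2, Mc1r and Gm22 lay in introns of Gm20388, and Dnajb7 in an intron of Xpnpep3 on the opposite strand. For the 42, unspliced RNA of the host covers the gene on its own strand.

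Start and end signals differed as well. The coding sequence began with ATG in 89.5% of genes without introns and 97.9% with introns. The share was 98.7% for Olfr, 100% for Vmn and Hist and 80.8% for Gm. Stop codons were compared over the coding sequences that ended in one, 2399 without introns and 17220 with introns. TAA was the stop codon in 40.6% against 26.8%, and TGA in 39.8% against 49.9%. By family TAA made up 52.8% for Gm, 41% for Olfr, 29.3% for Rik and 24.3% for Krtap. A purine 3 bases before the ATG, the base that most favours initiation, was found in 70.4% of 1797 genes without introns and 84.9% of 17014 with introns. In Krtap it was 97.1%, in Hist 93.3% and in Olfr 68.1%. Outside Olfr, Vmn and the Gm, Rik, clone and ID names it was 82.9% of 415 genes without introns, near the share with introns. The polyadenylation signals AATAAA or ATTAAA were searched in the last 50 bases of transcripts with at least 50 untranslated 3′ bases. They were found in 50% of 906 genes without introns and 76.6% of 16037 with introns. By family the share was 87.1% of 31 Krtap, 58.8% of 17 Pcdhb, 20.7% of 29 Hist, 8.11% of 37 Vmn and 7.69% of 182 Olfr genes. Outside Hist, Olfr, Vmn and the Gm, Rik, clone and ID names it was 72.6% of 340.

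The class of a gene depends on the annotation. GENCODE M21 describes the same assembly at a later date. By gene ID, 1135 of the 3104 genes (36.6%) were there protein coding without introns, and 989 (31.9%) were protein coding with introns. Another 540 IDs (17.4%) were not listed, 222 were pseudogenes, 151 were noncoding, and 67 were immune gene segments or other coding types. Of the 67, 57 had introns there, among them 27 of the 34 Ighv, 16 of the 19 Igkv and 10 of the 12 Trav entries. The outcome differed by family. All 35 Tas and 13 mitochondrial genes, 46 of 47 Krtap, 54 of 62 Hist, 18 of 22 Pcdhb, the 22 genes with Fox, Sox or Pou prefixes and FOXL1 were kept. Introns were gained by 785 of 961 Olfr (81.7%) and 89 of 185 Vmn genes (48.1%). Of the 785, 775 still had their coding sequence in 1 exon, and 763 had the same coding positions as before. Their median untranslated 5′ length was 278 bases, against 0 in the Olfr genes of the annotation used for counting. On Y, 216 of 301 IDs were not listed. Cebpa, Junb, Kcnj11 and Atoh7 had introns in M21, and Kif4-ps was a pseudogene.

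**Figure D5:**
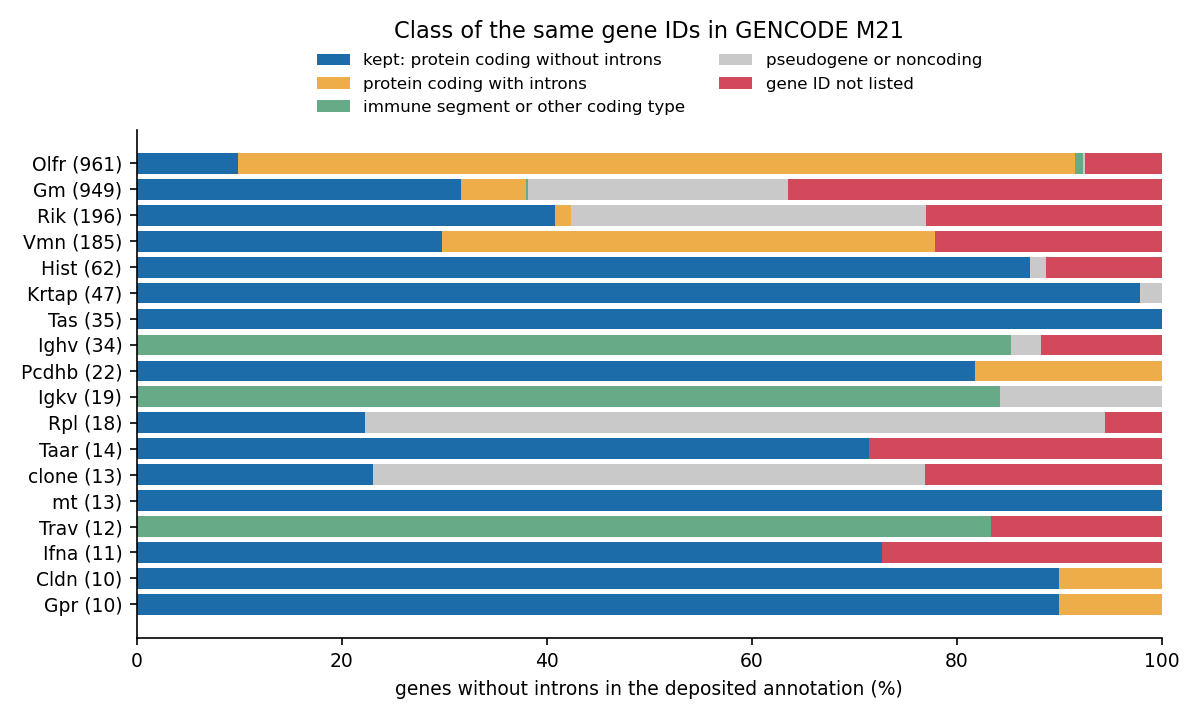
Class of the same gene IDs in GENCODE M21, as the percent of genes without introns in the annotation used for counting, for each prefix with 10 or more (number in brackets). Olfr and Vmn are mostly or largely yellow (coding with introns), Gm is split, and Tas, mt and Krtap are almost wholly blue (kept).

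Among the 50 genes that contribute to the pathways the study lists as enriched, 2 lacked introns, beside 13.7% of all coding names. The study's pathway analysis took only coding genes expressed in these cells, so the 50 and all coding names are unlike sets. The 2 were Cebpb and Ubqln2. Cebpb, a transcription factor that responds to stress, lay on chromosome 2 from 167688915 to 167690418. Ubqln2, which brings ubiquitinated proteins to the proteasome, lay on chromosome X from 153498232 to 153501537. Cebpb had 107 untranslated 5′, 891 coding and 506 untranslated 3′ bases and shared exon bases with Tmem189. Ubqln2 had 222, 1917 and 1167 and shared none. No stretch of read length of either was found in a coding gene that does not overlap it. Tmem189 overlaps Cebpb and so did not enter that comparison. Both were still without introns in GENCODE M21.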

How the data were processed

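RNA was sequenced as 101-base paired reads from 3 libraries of wild type and 3 of C150S mTAL cells. The authors aligned reads with STAR 2.3.0 to mm10 with an added UMOD sequence and counted them with HTSeq by gene name, over exon rows in union mode. The deposited file analysed here is the annotation of that counting. Its start and end columns are positions and no expression values, so no depth, precision or test between groups is given.

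The genes, families and lists were chosen with earlier results of these data known. Lengths were taken from each gene's longest coding transcript, with the stop codon counted as coding. Positions are those of mm10. Sequences came from GENCODE M21 transcripts and RefSeq promoters (both GRCm38). An exon's sequence was used where an M21 exon held it whole. Proteins were compared with blastp 2.17.0 (e-value 1e-10 at most). Mitochondrial genes were translated with the vertebrate mitochondrial code. Named in the text are prefixes with 10 or more genes, extremes of lengths, clusters and identity, well-known members of each list and genes of the study's pathway table. Other genes were named after their values were seen. Steps were tested on simulated data. Counting used Python 3.11.15 (numpy 2.4.6), and plots matplotlib 3.10.9. Some genes that the naming rule covers are not reported here.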

Additional observations from a re-analysis of the deposited data

How the results depend on the processing

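Of 34 alternatives, 19 moved a value by less than 1.5 times for counts or by less than its counting interval for shares and medians, and 15 moved it further. The 3104 genes became 1479 by the same rule in GENCODE M21 and 1331 with its protein coding type alone, and 1135 were kept in both. The share of genes in a cluster, 65.7%, was 55% with a limit of 50 kb, 71.3% with 200 kb, 58.4% with clusters on 1 strand, 60.9% with no gene with introns between neighbours and 45.6% over the kept genes, which formed 112 clusters in place of 330. The median coding length was 684 bases without Olfr. The share without untranslated bases, 52.5%, was 47.7% without Olfr and 34.7% over the kept genes. The share with bases under another name, 8.63%, was 1.35% on the same strand. The 849 near copies became 1466 at 50% identity and 421 at 90%. The values over the kept genes and the protein coding type were added after the data were seen. No paired analysis was possible because no value per library was analysed. Limits are that the counts describe an annotation and not expression in these cells, that 519 genes had no sequence here, and that shares of identical stretches cover coding transcripts only.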
